A study of Homo sapiens with 9 samples.

Results

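The results concern PC-3 cells treated with decitabine and S-adenosylmethionine (SAM) together, set against PC-3 cells that received neither agent, and were measured by RNA sequencing. The comparison uses 6 of the 9 libraries of the series, the 3 combination libraries and the 3 control libraries, chosen by their treatment labels, with every gene counted in them. According to the labels and the methods of the study, the combination cells received 1 µM decitabine and 200 µM SAM simultaneously and were collected on day 5, and the control cells received only the vehicle of acidified aqueous ethanol for the same time. The other 3 libraries, from cells given 1 µM decitabine alone for 5 days, entered the same fit and serve below as a second reference. All 9 libraries come from a single established line, PC-3, an androgen receptor-negative line derived from a bone metastasis of a prostate adenocarcinoma, and the labels do not say whether libraries of a group came from separate cultures. The p-values therefore measure the spread between these samples, which may be technical. No cells given SAM alone were analysed here, so the effect of SAM without decitabine was not measured.

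Decitabine is a deoxycytidine analogue. After its incorporation into replicating DNA it traps DNA methyltransferases, so that methylation of CpG dinucleotides is lost as the cells divide, and genes whose promoters were held silent by methylation, germline genes above all, can be transcribed. Transcribed repeats can form double-stranded RNA, which cytoplasmic sensors read as viral and answer with interferon-stimulated genes. SAM is the methyl donor of most cellular methyltransferases and is made from methionine by methionine adenosyltransferase.

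Each of the 6 libraries held between 21954901 and 22489684 estimated counts. Between 15502 and 15606 genes reached 10 counts in a control library and between 17888 and 18301 in a combination library. On the first principal component, which held 83.8% of the variance, all combination libraries lay apart from all controls. On the second, with 6.03%, combination replicates 1 and 2 lay at -42.19 and -35.66 and combination replicate 3 at -7.51, while the controls lay at 1.39 to 2.32 and the decitabine libraries at 22.78 to 28.62, so results that rest on replicate 3 are given with and without it. KRT8 and KRT18, the keratins of simple epithelium, were present in every library, and KLK3, the prostate-specific antigen, had no count, as is known of this line. Of 20 blood cell marker genes only 7 were abundant enough to test. All 7 were higher under the combination at an adjusted p under 0.05, beside 35.9% of all genes tested. Genes this low in the controls could pass the filter on low counts largely through treated libraries, so their direction is no separate evidence. MS4A1, FCGR3A, NKG7 and HBB had no count in any library. The list summed to 1.29 to 1.45 CPM (the count scaled to a fixed library total) in the controls and 7.07 to 9.15 CPM in the combination libraries. Of 12 endothelial markers 9 were tested, and the list summed to 48.2 to 52.4 CPM in the controls and 89.6 to 104.9 CPM in the combination libraries.

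The combination treatment changed most of the genes that could be tested. Of 18532 genes, 6647 (35.9%) were higher and 5799 (31.3%) lower than in the controls at an adjusted p under 0.05 in edgeR's quasi-likelihood test, the threshold for every gene called below. Rises were larger than falls: the median log2 fold change was 1.32 among the genes that rose and -0.62 among those that fell, 1574 genes rose by more than 3 on the log2 scale, and 19 fell by that much. The median over all genes tested was 0.05. With libraries scaled by their totals alone that median moved to 0.27, and 69.3% of the called genes rose in place of 53.4%, so small shifts of either sign are relative to the scaling. In bulk RNA, fewer cells that express a gene and less RNA of it per cell cannot be told apart.

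**Figure D1:**
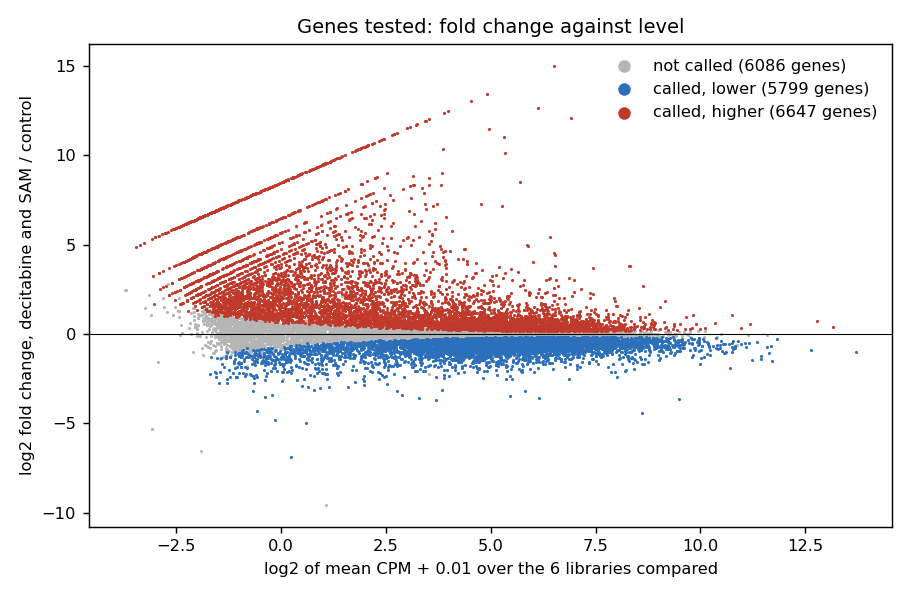
Log2 fold change of the combination against the controls (vertical axis) for each of the 18532 genes tested, against the log2 of the mean level in CPM plus 0.01 over the 6 libraries (horizontal axis). Red points are the 6647 genes that rose, blue points the 5799 that fell and grey points the rest, and the large rises lie among genes of low level. The diagonal rows are genes with few or no control counts, whose fitted fold depends on the prior count and is no measured size.

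Direction depended on level and on gene class. When the genes were divided into 4 classes of equal size by level, then in the class with the lowest mean level over the 9 libraries, 51.5% rose and 8.53% fell, whereas in the highest class 24.3% rose and 47.0% fell. Part of the lowest class passed the filter on low counts only because the genes were high in a treated group, so their share of rises is no separate evidence. Among 14599 protein-coding genes 35.0% rose and 35.0% fell, and among 2993 long non-coding RNAs 40.5% rose and 15.9% fell. By chromosome the protein-coding genes of chromosome 19 rose most often, 44.7% of 1085 with 26.6% lower, followed by those of the X chromosome, 41.6% of 582 with 34.9% lower.

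**Figure D2:**
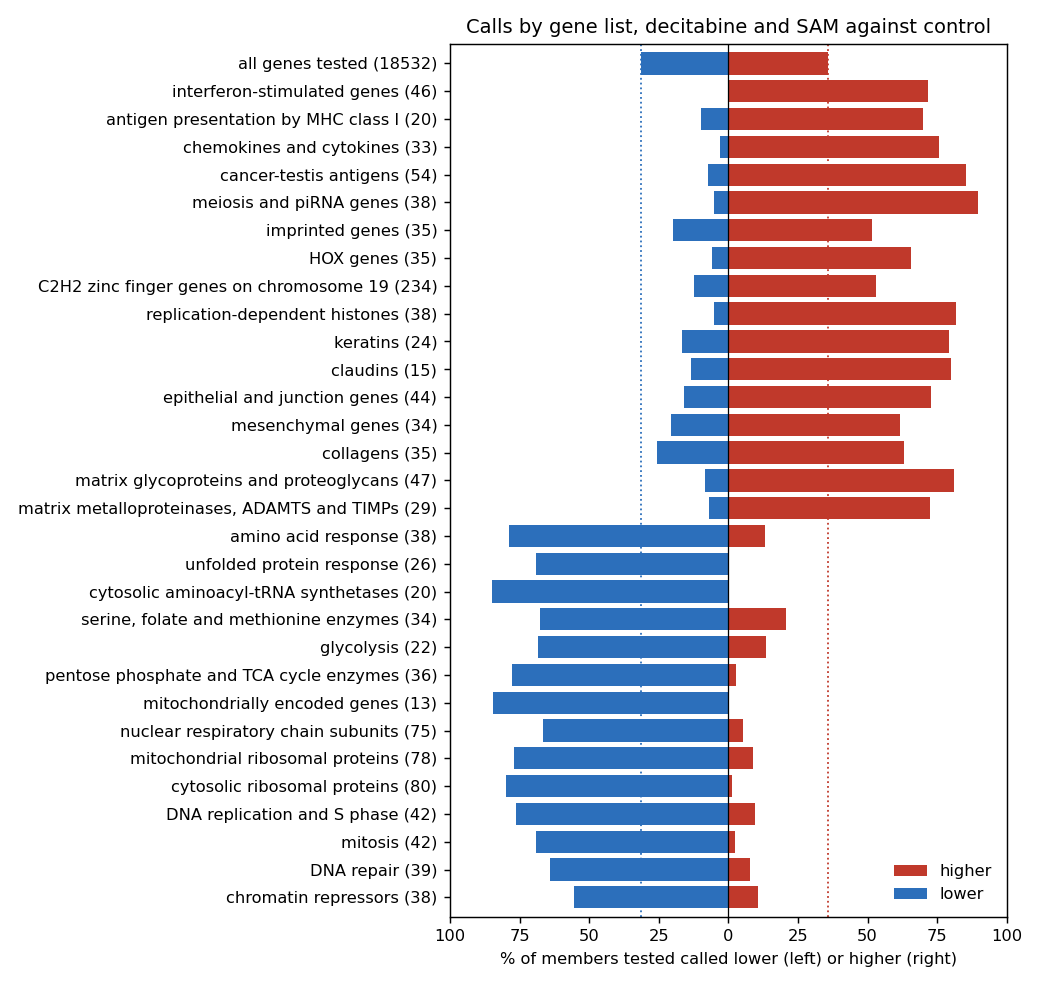
Percentage of the tested members of each gene list that were called higher (red, right) or lower (blue, left) under the combination, with the number tested in brackets after each name. The dotted lines mark 35.9% higher and 31.3% lower over all genes tested. Germline, keratin and interferon lists lie far to the right, while ribosomal, tRNA synthetase and S phase lists lie to the left. Members with no control count, as in the germline and keratin lists, could pass the filter only through treated libraries.

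Many silent genes came on. A total of 308 genes had no count in any control and at least 10 counts in every combination library, and no gene did the reverse. Of the 308, 212 were protein-coding, 61 were long non-coding RNAs and 30 were pseudogenes. The X chromosome held 40 of the 212 (18.9%), against 7.41% of the 1996 protein-coding genes with no control count and a count in any other library and 3.99% of the protein-coding genes tested. Of the 308 genes, 267 also reached 10 counts in every decitabine library, and all had at least 1 count in a decitabine library. Together the 308 held 0.154%, 0.153% and 0.162% of the counts of combination replicates 1 to 3. A limit of 50 counts in every combination library left 81 genes, 22 of the 68 protein-coding ones on X (32.4%), and allowing 1 count in each control gave 548.

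Germline genes were among the largest rises. DAZL (ENSG00000092345, chr3:16586792-16670306, - strand), an RNA-binding protein of germ cells, had 0 counts in each control and 4731, 4129 and 3648 counts, or 206, 182 and 155 CPM, in the combination libraries. Against a floor of 3 counts over the control group this was at least 3640-fold higher (adjusted p = 2.9e-06). SYCP3, a protein of the axis of meiotic chromosomes, had 1, 0 and 0 counts in the controls and 705, 668 and 632 under the combination (adjusted p = 2.3e-12). MAEL, which acts with PIWI proteins against transposons in the germline, rose from no counts to 125, 160 and 230 counts, at least 149-fold higher (adjusted p = 1.8e-07). For all 3 genes every combination library lay far above every control.

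Promoters of DAZL and MAEL are shown because both genes went from no counts to a high level and both start in DNA dense in CpG, the dinucleotide that DNA methyltransferases act on. The 200 bases before each start are given 5′ to 3′ on the strand of the gene, from RefSeq on GRCh38.p14, with every CpG in capitals: DAZL at chr3:16605424-16605623, - strand, with 27 CpG, and MAEL at chr1:166975382-166975581, + strand, with 40.
DAZL: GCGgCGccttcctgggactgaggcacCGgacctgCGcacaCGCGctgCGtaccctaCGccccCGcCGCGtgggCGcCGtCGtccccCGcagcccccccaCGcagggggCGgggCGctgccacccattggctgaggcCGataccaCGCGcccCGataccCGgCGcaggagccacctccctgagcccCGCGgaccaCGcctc
MAEL: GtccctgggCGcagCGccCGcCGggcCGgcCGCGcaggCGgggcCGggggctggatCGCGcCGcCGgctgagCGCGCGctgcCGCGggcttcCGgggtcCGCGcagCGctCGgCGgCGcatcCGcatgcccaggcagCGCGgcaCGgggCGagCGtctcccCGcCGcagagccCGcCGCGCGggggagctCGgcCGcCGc
The deposited files hold no methylation values, so whether these CpG were methylated was not measured here.

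Of 55 genes of meiosis and the piRNA pathway, 38 were tested, 34 of which rose and 2 fell, with a median log2 fold change of 3.53 against 0.05 over all genes. The median was 3.42 with the 11 tested members that had no control count set at their lower bound, and such members could pass the filter only through counts in the treated libraries. Among the members, TEX13C, a testis-expressed gene on X, rose from no counts to 1365, 1260 and 1573 counts (at least 1220-fold), and RBMXL3, an intronless relative of the splicing factor RBMX, from none to 1083, 1090 and 1007 (at least 926-fold). The 2 members of the list that fell were SYCE2, a synaptonemal complex protein, from 3.52, 2.85 and 2.62 to 1.31, 0.572 and 0.809 CPM (log2 fold change -1.74, SE 0.29, adjusted p = 0.0001), and PIWIL1, a PIWI protein, from 16.4, 16.6 and 12.6 to 9.97, 8.10 and 7.37 CPM (adjusted p = 0.015, and 0.058 without combination replicate 3). The list's share of all counts was 0.0083 to 0.0087% in the controls and 0.057 to 0.062% in the combination libraries, without overlap, and the exact permutation test gave p = 0.1, the smallest that 3 against 3 allows.

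Cancer-testis antigens, proteins of the testis that tumours can present to T cells, behaved alike. Of 70 listed genes 54 were tested, 46 rose and 4 fell, the median being 6.36 on the log2 scale, or 4.57 with the 18 tested members that had no control count set at their lower bound. Of these 18, 16 reached 10 counts in every combination library. MAGEA4, a member of a family of ubiquitin ligase partners on X, had 0, 0.15 and 0.0494 CPM in the controls and 91.0, 80.4 and 69.8 CPM under the combination (log2 fold change 10.13, SE 0.32, adjusted p = 4.5e-10). CTAG2, a target of tumour vaccines, rose from 0.0993, 0 and 0 to 7.14, 6.91 and 6.01 CPM (log2 fold change 7.43, SE 0.40, adjusted p = 1.5e-09). MAGEB2 rose from no counts to 494, 454 and 638 counts (at least 461-fold), PAGE2B to 471, 464 and 559 (at least 434-fold) and SPANXA1 to 355, 465 and 494 (at least 382-fold), all on X. PAGE, SPANX and CTAG genes have nearly identical copies between which the counting can split reads, so their values are uncertain gene by gene. The 4 that fell, PBK, TTK, KIF20B and SPAG9, are also transcribed in somatic cells: PBK, a mitotic kinase, went from 66.6, 62.9 and 67.0 to 30.8, 32.1 and 24.0 CPM (log2 fold change -1.18, SE 0.10, adjusted p = 1.7e-07), and KIF20B, a kinesin of cytokinesis, from 32.2, 35.4 and 36.3 to 17.2, 17.4 and 17.9 CPM (log2 fold change -0.98, SE 0.12, adjusted p = 4.8e-06).

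Among the remaining large rises of protein-coding genes were PNMA5, a domesticated retrotransposon gene of the paraneoplastic antigen family, from 1, 0 and 0 to 3086, 3386 and 3133 counts (adjusted p = 1.4e-13), and TKTL1, a transketolase-like gene on X, from 3, 0 and 0 to 5280, 5701 and 5614 (adjusted p = 4.6e-14). DMRTB1, a transcription factor of spermatogonia, came on from none at 782, 814 and 588 counts, at least 637-fold higher, and DCAF4L2 from none at 823, 649 and 568, at least 594-fold. Of 14 genes derived from retroviruses or retrotransposons that were tested, 10 rose and 2 fell. ERVH48-1, the gene of the envelope-derived protein suppressyn, rose from 0.0496, 0.1 and 0 to 5.31, 5.76 and 4.64 CPM (adjusted p = 6.1e-09). The 2 that fell were PEG10 (log2 fold change -0.52, SE 0.12, adjusted p = 0.0018) and ERVK13-1 (log2 fold change -0.46, adjusted p = 0.04). The call of ERVK13-1 was lost when any of the controls or combination replicate 1 or 2 was left out, with adjusted p between 0.062 and 0.13.

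Imprinted genes moved in both directions, 18 of 35 tested up and 7 down, or 21 and 3 with library totals as the scaling. H19, the maternally expressed non-coding RNA next to IGF2, had 8.49, 7.85 and 6.47 CPM in the controls and 152, 134 and 80.0 CPM under the combination (log2 fold change 4.002, SE 0.38, adjusted p = 7.3e-05). MEG3, the maternally expressed RNA of the DLK1 locus, had no control count and 371, 492 and 644 counts under the combination (at least 438-fold higher). PEG3, a paternally expressed zinc finger gene, rose from 0.695, 1.35 and 1.58 to 8.27, 7.30 and 8.26 CPM (log2 fold change 2.71, SE 0.21, adjusted p = 5.8e-08). The lowest control library of each lay well below the lowest combination library. GRB10, an adaptor of the insulin receptor, fell from 162, 147 and 141 to 97.1, 98.5 and 100.6 CPM (log2 fold change -0.60, SE 0.07, adjusted p = 3.1e-06), and the transporter gene SLC22A18 from 17.0, 16.01 and 12.5 to 8.93, 8.58 and 7.11 (log2 fold change -0.89, SE 0.14, adjusted p = 5.6e-05).

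Of the HOX genes, which set position along the body axis, 23 of 35 tested rose and 2 fell. The list summed to 792, 811.7 and 808 CPM in the controls and to less, 589.2, 558.2 and 471.8 CPM, under the combination. HOXD1 rose from 0.348, 0.3 and 0.444 to 5.18, 5.46 and 6.64 CPM (log2 fold change 3.96, SE 0.25, adjusted p = 8.8e-09) and HOXB7 from 0.0993, 0.1 and 0.198 to 2.70, 3.3 and 2.64 (log2 fold change 4.38, SE 0.32, adjusted p = 3.2e-08). The 2 that fell were the most posterior genes of their clusters, HOXB13, a factor of the prostate lineage, from 579.9, 594 and 596 to 256, 235 and 186 CPM (log2 fold change -1.39, SE 0.13, adjusted p = 2.4e-06), and HOXA13 from 44.5, 47.2 and 50.9 to 25.9, 26.3 and 21.3 (log2 fold change -0.96, SE 0.12, adjusted p = 4.9e-06). Of 92 other homeobox and lineage factors tested, 58 rose and 14 fell. FOXI1, a factor of ionocytes, came on from no counts at 67, 79 and 86 counts (at least 67.5-fold), and SOX12 fell from 139.7, 128 and 112 to 59.2, 55.4 and 57.2 CPM (log2 fold change -1.14, SE 0.09, adjusted p = 5.3e-08).

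The C2H2 zinc finger genes clustered on chromosome 19, many of which encode KRAB repressors of transposons, rose 124 times and fell 29 times among 234 tested (160 and 16 scaled by library totals), with a median log2 fold change of 0.36. ZNF154 rose from 0.0496, 0 and 0.0494 to 2.79, 2.86 and 2.94 CPM (log2 fold change 6.21, SE 0.45, adjusted p = 2.9e-08), and ZNF534 came on from no counts (at least 48.6-fold). ZNF587B fell from 20.9, 17.5 and 21.1 to 6.58, 6.20 and 8.86 CPM (log2 fold change -1.46, SE 0.15, adjusted p = 1.2e-06). TRIM28, the corepressor that KRAB zinc finger proteins recruit, fell from 675, 703 and 716 to 384, 359.6 and 326 CPM (log2 fold change -0.97, SE 0.07, adjusted p = 5.7e-08). Replication-dependent histone genes rose 31 times and fell 2 times among 38 tested, with a median of 2.29, and H2BC15 rose from 0.447, 0.951 and 1.04 to 9.71, 8.10 and 9.12 CPM (log2 fold change 3.46, SE 0.22, adjusted p = 7.3e-09). All 67 listed genes together summed to only 90.9, 106.9 and 117.6 CPM in the controls and 407.9, 414.3 and 494.7 CPM under the combination. How completely the libraries captured these transcripts was not tested. H3C14 and H3C15 had identical values and cannot be told apart. H2AC20 and H2BC9 were the members that fell, H2AC20 from 1.94, 1.601 and 1.68 to 0, 0 and 0.170 CPM (log2 fold change -4.78, SE 0.62, adjusted p = 9e-06) and H2BC9 from 4.32, 4.95 and 4.59 to 2.003, 2.07 and 1.87 CPM (log2 fold change -1.22, SE 0.19, adjusted p = 4.8e-05).

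Among the genes tested, rises were more frequent where the promoter holds few CpG. A RefSeq promoter window of 300 bases, 250 before and 50 after the start, was found for 11628 of 14085 tested protein-coding genes (82.6%) outside chromosome 8 and the mitochondrial genome. These genes were divided into 4 classes by their number of CpG. In the class with 0 to 17 CpG in the window, 45.9% rose, 27.1% fell and 15.0% rose by more than 3 on the log2 scale. In the other classes, with 18 to 26, 27 to 34 and 35 to 69 CpG, 29.9%, 29.0% and 29.2% rose, 39.7%, 38.4% and 41.3% fell, and 4.75%, 3.56% and 3.21% rose by more than 3. Of the genes that rose by more than 3 only 74.0% had a window, and of the protein-coding genes that came on 75.5%, too small a part for a median number of CpG. Genes with no control count could enter these classes only through treated libraries and could not be called lower. Their rises, those above 3 included, are therefore no separate evidence. The shares are descriptions, and the part of expression level or of the filter in them was not tested.

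**Figure D3:**
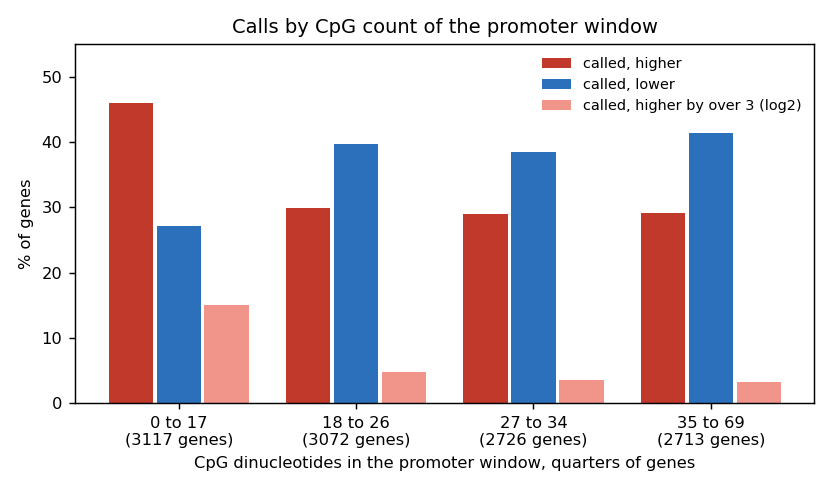
Percentage of genes called higher, lower, and higher by more than 3 on the log2 scale (vertical axis) in 4 classes of the 11628 genes by the number of CpG dinucleotides in the promoter window (horizontal axis). The share that rose was 45.9% in the class with 0 to 17 CpG and 29.0 to 29.9% in the other 3.

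Epithelial genes rose more often than they fell. Of 44 epithelial and junction genes tested 32 rose and 7 fell, with a median log2 fold change of 1.36. CDH1, the E-cadherin of adherens junctions, had 1.84, 2.001 and 1.78 CPM in the controls and 15.2, 18.0 and 17.6 CPM under the combination (log2 fold change 3.17, SE 0.13, adjusted p = 1.4e-10). KRT7, a keratin of simple epithelium, rose from 3.18, 4.10 and 4.20 to 158, 156 and 187 CPM (log2 fold change 5.45, SE 0.16, adjusted p = 8e-11). TP63, the p53 relative that marks basal prostate cells, rose from 0, 1 and 1 to 171, 201 and 139 counts (adjusted p = 1e-09). In each case all combination libraries lay above all controls. CLDN4, a tight junction protein, fell from 367, 419 and 365 to 149, 146 and 148 CPM (log2 fold change -1.38, SE 0.07, adjusted p = 2e-09), and the desmosomal plakophilin PKP1 from 887, 943 and 930.2 to 447, 473 and 481 (log2 fold change -0.98, SE 0.07, adjusted p = 1.9e-08).

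Of 55 listed keratins 24 were tested, 19 rose (79.2%) and 4 fell (16.7%). Claudins rose 12 times (80.0%) and fell 2 times (13.3%) among 15, beside 35.9% and 31.3% over all genes tested. Of the tested members 6 keratins and 1 claudin had no control count and could pass the filter only through treated libraries. The keratin list summed to 2095, 2504 and 2315 CPM in the controls and 3625, 3591 and 3349 CPM under the combination. The claudin list summed to 481.7, 534.9 and 479.1 CPM in the controls and to less, 426.5, 425.8 and 462.7 CPM, under the combination. The keratins that fell were KRT15, KRT18, KRT19 and KRT75. KRT75 fell from 178, 196 and 211 to 69.8, 85.3 and 89.9 CPM (log2 fold change -1.26, SE 0.10, adjusted p = 1e-07) and KRT19 from 381, 364 and 336 to 259.9, 228 and 198 (log2 fold change -0.66, SE 0.09, adjusted p = 2e-05), while KRT8 rose from 107, 127 and 125 to 217, 207 and 201 CPM (log2 fold change 0.80, SE 0.08, adjusted p = 5.1e-07). The claudins that fell were CLDN4 and CLDN12. CLDN6, an embryonic claudin, rose from 0.0496, 0.1 and 0.0494 to 3.09, 4.79 and 5.28 CPM (log2 fold change 5.93, SE 0.51, adjusted p = 2.3e-07), and CLDN5, a claudin of endothelium, came on from no counts at 53, 50 and 58 counts (at least 46.8-fold). Among the endothelial markers 6 of 9 tested rose and 1, ROBO4, fell. PECAM1, an adhesion molecule of endothelium, rose from 9.78, 10.3 and 10.2 to 43.1, 40.3 and 35.6 CPM (log2 fold change 1.98, SE 0.12, adjusted p = 5.6e-09). VWF, which defines that cell type, had 0.0497, 0.05003 and 0 CPM in the controls and 0.348, 0.616 and 0.511 CPM under the combination (log2 fold change 3.68, SE 0.67, adjusted p = 0.00022). The part of such cells in these results was not tested.

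By number, mesenchymal genes also rose, 21 of 34 tested, and 7 fell, VIM, ZEB1 and AXL among them. The list summed to 2482, 2670 and 2615 CPM in the controls and to less, 2234, 2252 and 2397 CPM, under the combination. VIM, the intermediate filament vimentin, had 1220, 1313 and 1252 CPM in the controls and 547, 507 and 476 CPM under the combination (log2 fold change -1.31, SE 0.09, adjusted p = 1.3e-08). ZEB1, a repressor of CDH1, fell from 43.9, 43.0 and 49.4 to 26.9, 30.2 and 33.6 CPM (log2 fold change -0.59, SE 0.09, adjusted p = 5.5e-05), and AXL, a receptor kinase, from 178, 206 and 195 to 73.6, 81.1 and 96.3 (log2 fold change -1.21, SE 0.10, adjusted p = 1e-07). None of these values overlapped between the groups. CDH2, the N-cadherin, rose from 60.5, 64.3 and 70.3 to 154, 164 and 179.7 CPM (log2 fold change 1.35, SE 0.08, adjusted p = 7.4e-09), GREM1, a BMP antagonist, from 0.199, 0.15 and 0.148 to 18.7, 22.97 and 32.2 (log2 fold change 7.17, SE 0.40, adjusted p = 1e-07), and THY1, a surface protein of fibroblasts, from no counts to 98, 155 and 140 (at least 114-fold).

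By number of genes, matrix genes rose more often than they fell. Collagens rose 22 times and fell 9 times among 35 tested, and matrix glycoproteins and proteoglycans rose 38 times and fell 4 times among 47. All listed collagens together summed to 1709, 1863 and 1901 CPM in the controls and to less, 1299, 1441 and 1565 CPM, under the combination. The glycoprotein and proteoglycan list summed to 1655, 1875 and 1830 CPM in the controls and 2810, 3170 and 3518 CPM under the combination. COL1A2, a chain of type I collagen, rose from 0.745, 0.851 and 0.247 to 28.9, 30.5 and 40.3 CPM (log2 fold change 5.75, SE 0.29, adjusted p = 3.8e-08), FBLN2, a fibulin of elastic fibres, from 0.397, 0.3 and 0.543 to 20.6, 23.5 and 23.3 (log2 fold change 5.74, SE 0.18, adjusted p = 1.1e-11), and LOXL4, a lysyl oxidase-like enzyme, from 0.149, 0.15 and 0.0987 to 10.97, 13.8 and 24.6 (log2 fold change 6.90, SE 0.56, adjusted p = 9.7e-06). Some collagens that were already transcribed in the controls fell: COL13A1, a transmembrane collagen, went from 212, 229.6 and 219 to 68.8, 60.5 and 52.1 CPM (log2 fold change -1.87, SE 0.15, adjusted p = 1.3e-06) and COL6A1 from 494, 534 and 568 to 313, 334 and 354 (log2 fold change -0.67, SE 0.09, adjusted p = 1.8e-05). The glycoproteins that fell were TNC, HSPG2, TNXB and LOXL2. Tenascin C, encoded by TNC, went from 185, 272 and 272 to 65.3, 88.0 and 95.0 CPM (log2 fold change -1.55, SE 0.18, adjusted p = 5.6e-05) and perlecan, encoded by HSPG2, from 137, 164 and 178 to 57.6, 68.1 and 69.8 (log2 fold change -1.30, SE 0.15, adjusted p = 2e-05). TNXB had an adjusted p between 0.056 and 0.13 without control replicate 1 or 2 or any of the combination libraries, and without combination replicate 1 or 2 only 2 of this list fell.

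Receptors and proteases of the matrix followed. Integrins rose 11 times and fell 3 times among 19 tested. ITGA7, the laminin-binding integrin alpha 7, rose from 1.39, 1.80 and 1.83 to 16.9, 21.8 and 21.6 CPM (log2 fold change 3.58, SE 0.18, adjusted p = 7.7e-10). The 3 that fell, ITGA3, ITGA6 and ITGB4, are subunits of the laminin receptors of basal epithelium, ITGB4 from 308, 290.3 and 244 to 149, 139.9 and 153 CPM (log2 fold change -0.93, SE 0.14, adjusted p = 9.9e-05) and ITGA6 from 177, 167 and 168 to 85.8, 82.8 and 82.5 (log2 fold change -1.03, SE 0.10, adjusted p = 7.6e-07). Laminins rose 5 times (41.7%) and fell 2 times (16.7%) among 12, beside 35.9% and 31.3% over all genes tested. LAMB3 went from 115, 138 and 134 to 300.4, 360.2 and 486 CPM (log2 fold change 1.57, SE 0.27, adjusted p = 0.0013) and LAMA5 from 549, 606 and 527 to 199, 218 and 213 (log2 fold change -1.42, SE 0.08, adjusted p = 4.9e-09). Metalloproteinases, ADAMTS enzymes and their TIMP inhibitors rose 21 times and fell 2 times among 29. MMP15, a membrane-bound metalloproteinase, rose from 1.99, 2.70 and 3.50 to 26.8, 28.8 and 28.0 CPM (log2 fold change 3.35, SE 0.18, adjusted p = 2.3e-09), and MMP14, its relative that activates MMP2, fell from 135, 159 and 158 to 78.0, 98.2 and 112 (log2 fold change -0.65, SE 0.14, adjusted p = 0.0014).

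**Figure D4:**
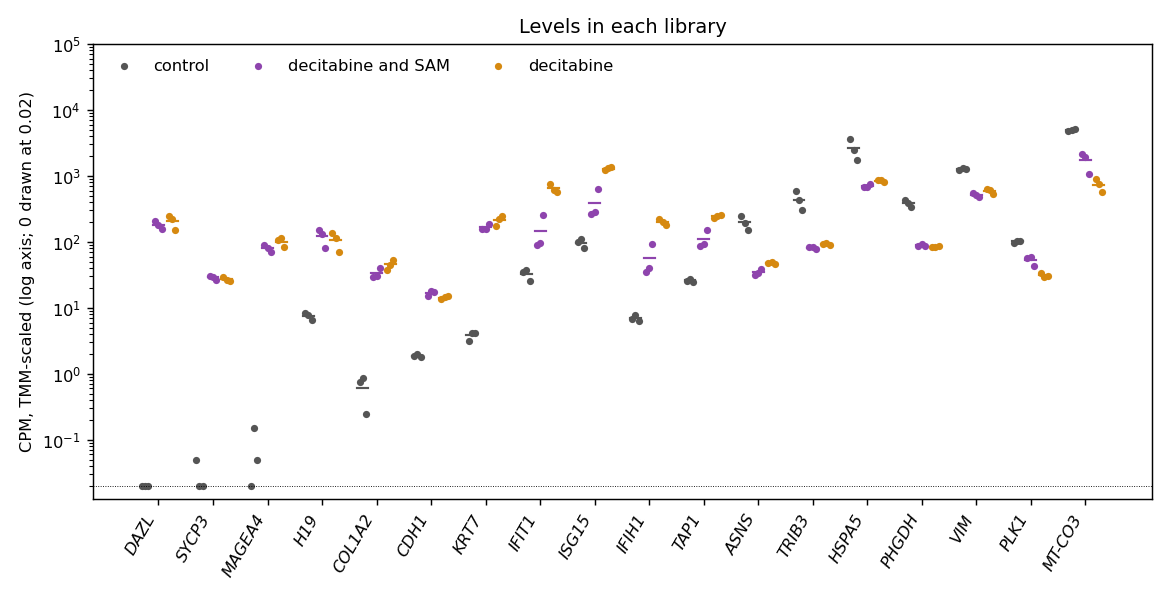
Level of 18 named genes in each library, in TMM-scaled CPM on a log axis, for the controls (grey), the combination (purple) and decitabine alone (orange), with 1 point per library and a line at the mean where all 3 values are above 0. Points at 0 are drawn on the dotted line at 0.02, as for DAZL in the controls at no counts, and combination replicate 3 stands above the other combination libraries for IFIT1, ISG15, IFIH1 and TAP1.

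Interferon-stimulated genes were higher than in the controls and far lower than after decitabine alone. IFIT1 (ENSG00000185745, chr10:89392546-89406487, + strand), which binds viral RNA without a host cap, had 35.3, 37.6 and 25.3 CPM in the controls, 88.6, 96.7 and 255 CPM under the combination and 762, 602 and 575 CPM after decitabine alone. It was higher than in the controls (log2 fold change 2.17, SE 0.46, adjusted p = 0.0055) and lower than after decitabine (log2 difference -2.14, adjusted p = 0.026). ISG15, a ubiquitin-like modifier, had 100.9, 109 and 80.3 CPM in the controls, 264, 280.3 and 634 under the combination and 1241, 1298 and 1345 after decitabine (against the controls log2 fold change 2.02, SE 0.36, adjusted p = 0.0021, against decitabine log2 difference -1.72, adjusted p = 0.023). For both genes the 3 groups did not overlap. Against decitabine the adjusted p of IFIT1 was 0.075 to 0.094 without decitabine replicate 1 or 2 or combination replicate 1 or 2, and that of ISG15 0.052 to 0.077 without any 1 decitabine library or combination replicate 1 or 2. Combination replicate 3 was more than 2 times either of the other combination libraries in both genes.

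Promoters of IFIT1 and ISG15 are shown because they hold the interferon-stimulated response element (ISRE), the site of a complex that holds STAT2 and IRF9, read here as GAAANNGAAA on either strand. The 200 bases before each start are given 5′ to 3′ on the strand of the gene, from RefSeq on GRCh38.p14, with matches in capitals: IFIT1 at chr10:89392423-89392622, + strand, with 2 matches 116 and 103 bases before the start, and ISG15 at chr1:1013297-1013496, + strand, with 2 that overlap.
IFIT1: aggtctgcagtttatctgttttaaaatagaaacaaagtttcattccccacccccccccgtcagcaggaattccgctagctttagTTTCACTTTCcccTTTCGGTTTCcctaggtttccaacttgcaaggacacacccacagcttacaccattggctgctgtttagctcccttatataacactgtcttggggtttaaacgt
ISG15: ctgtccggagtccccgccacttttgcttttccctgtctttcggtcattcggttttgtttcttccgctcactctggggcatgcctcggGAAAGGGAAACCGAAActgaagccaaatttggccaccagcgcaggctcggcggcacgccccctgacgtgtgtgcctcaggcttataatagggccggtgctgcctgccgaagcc
The motif stood in 2.97% of the 11628 promoter windows, or 345 genes, of which 40.6% rose and 33.3% fell against the controls, and 33.6% and 36.5% of the genes without it did. Against decitabine 23.2% of the 345 genes were lower, compared with 7.55% of the genes without the motif.

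All 46 interferon-stimulated genes listed were tested, 33 rose against the controls and none fell, and their median log2 fold change was 1.98. IFI27, a mitochondrial protein of the interferon response, rose from 8.99, 8.21 and 5.38 to 93.4, 109 and 322 CPM (log2 fold change 4.54, SE 0.62, adjusted p = 0.00065), and OAS2, an enzyme that activates RNase L, from 22.7, 25.4 and 17.4 to 51.3, 61.9 and 184 (log2 fold change 2.18, SE 0.53, adjusted p = 0.01). The list summed to 1344 to 1521 CPM in the controls, to 2454, 2739 and 6017 CPM in combination replicates 1 to 3, and to 12700 to 13290 CPM after decitabine. Without combination replicate 3 the median was 1.16, 34 members rose and 4 fell, IFIT5, ISG20, TRIM22 and EIF2AK2, of which none was called with it. The count of rises also depended on the controls and was 20, 21 and 18 without control replicate 1, 2 and 3. Against decitabine 37 of the 46 were lower and none higher, with a median log2 difference of -2.04, where 7.67% of all genes tested were higher and 8.02% lower. Without combination replicate 3 all 46 were lower and the median was -2.73. Leaving out other single libraries lowered the count against decitabine to 24 (control replicate 2), 13, 12 and 24 (decitabine replicates 1 to 3), and 20 and 10 (combination replicates 1 and 2).

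The double-stranded RNA sensors IFIH1 and RIGI rose. IFIH1, the MDA5 sensor of long double-stranded RNA, had 6.80, 7.75 and 6.42 CPM in the controls, 34.5, 40.3 and 93.4 under the combination and 225, 198 and 178 after decitabine (log2 fold change 3.003, SE 0.45, adjusted p = 0.00091 against the controls). RIGI, the sensor of short double-stranded RNA ends, rose from 22.5, 21.2 and 15.3 to 59.1, 70.0 and 171 CPM (log2 fold change 2.35, SE 0.46, adjusted p = 0.0035), and IRF7, a factor that induces interferons, from 19.2, 19.4 and 13.6 to 46.9, 50.1 and 92.7 (log2 fold change 1.86, SE 0.29, adjusted p = 0.00094). Of 32 sensors, adaptors and factors tested 17 rose and 3 fell, and the 3 that fell were MAVS, the adaptor below both RNA sensors, STING1, the adaptor of DNA sensing, and TYK2, a kinase of the interferon receptor. MAVS went from 168, 170.4 and 181 CPM, a mean of 173, to a mean of 112 (log2 fold change -0.63, SE 0.09, adjusted p = 1.4e-05), STING1 from 24.1, 29.0 and 22.7 to 15.6, 15.9 and 21.1 (log2 fold change -0.52, SE 0.12, adjusted p = 0.002) and TYK2 from 158, 157 and 148 to 109.5, 109.5 and 115 (log2 fold change -0.47, SE 0.06, adjusted p = 1.5e-05). With libraries scaled by their totals alone the adjusted p of STING1 was 0.06. Without combination replicate 3, 14 rose and 5 fell.

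Of 20 genes of antigen presentation by MHC class I that were tested, 14 rose and 2 fell, CALR and PDIA3 (the latter with an adjusted p of 0.2 when scaled by library totals), which are also chaperones of the endoplasmic reticulum. B2M, the light chain of class I molecules, had 368, 393 and 393 CPM in the controls and 574, 521 and 656 under the combination (log2 fold change 0.60, SE 0.09, adjusted p = 2.5e-05), and TAP1, a subunit of the peptide transporter, 25.7, 27.5 and 24.98 and 86.7, 94.2 and 149 (log2 fold change 2.08, SE 0.19, adjusted p = 1.3e-05). After decitabine alone B2M had 931, 872 and 970.5 CPM and TAP1 229, 248 and 259.8 CPM, above every combination library. Without control replicate 1 or 2 the rises numbered 9 and 8. Against decitabine 13 of the 20 were lower and none higher, and 8 were lower without combination replicate 2 or decitabine replicate 2. Of the 17 members with a promoter window 9 held the ISRE (52.9%). For the interferon-stimulated genes themselves only 33 of 45 (73.3%) had a window, too small a part of the list to give a share.

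Chemokines and cytokines rose 25 times among 33 tested, and 1, LIF, fell (adjusted p 0.065 with library totals as the scaling). CXCL5, a chemokine for neutrophils, rose from 1, 0 and 0 to 197, 263 and 334 counts (adjusted p = 1.7e-07), and CXCL8, another, from 46.4, 48.7 and 37.5 to 83.2, 107 and 129.8 CPM (log2 fold change 1.27, SE 0.30, adjusted p = 0.008). TSLP, an epithelial cytokine, rose from 0.0993, 0.2 and 0 to 4.70, 3.96 and 8.35 CPM (log2 fold change 5.76, SE 0.60, adjusted p = 9.4e-06). CXCL10, the chemokine induced by interferon, had only 0, 1 and 0 counts in the controls and 0, 3 and 5 under the combination and was not called against the controls (adjusted p = 0.079, and 0.016 without combination replicate 1), while against decitabine, with 0.973, 1.01 and 1.02 CPM, it was lower (log2 difference -3.05, adjusted p = 0.0031). Metallothioneins, which bind zinc and copper, rose in 3 of 5 tested genes, MT1E, MT1F and MT1M, and MT1E rose from 0.0496, 0.05003 and 0 to 11.4, 10.8 and 10.7 CPM (log2 fold change 8.15, SE 0.33, adjusted p = 1e-10). MT2A had 398, 512 and 502 CPM in the controls and 437, 451 and 512 under the combination (adjusted p = 0.93). Without combination replicate 1, any 1 control or decitabine replicate 1 or 2 the rises numbered 5.

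Genes of the amino acid response, which the factor ATF4 induces when amino acids are short, fell. Of 38 tested 30 fell and 5 rose, ALDH1L2, ATF5, CTH, ATF3 and GDF15, with a median log2 fold change of -1.09. ASNS (ENSG00000070669, chr7:97851677-97872542, - strand), asparagine synthetase, had 249, 193 and 153 CPM in the controls and 31.8, 34.1 and 38.3 CPM under the combination (log2 fold change -2.51, SE 0.16, adjusted p = 2.3e-07). TRIB3, a pseudokinase that restrains ATF4, fell from 584, 426 and 301 to 83.6, 84.2 and 78.9 CPM (log2 fold change -2.41, SE 0.21, adjusted p = 1.4e-05), and CHAC1, a glutathione-degrading enzyme, from 46.1, 42.0 and 35.0 to 19.1, 21.9 and 25.4 (log2 fold change -0.89, SE 0.11, adjusted p = 8.9e-06). The controls differed among themselves, highest in replicate 1 and lowest in replicate 3 for all 3 genes, yet each lay above every combination library. ALDH1L2, the mitochondrial formyltetrahydrofolate dehydrogenase, moved the other way, from 2.38, 2.20 and 1.98 to 25.1, 28.7 and 31.1 CPM (log2 fold change 3.69, SE 0.15, adjusted p = 1e-10).

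The unfolded protein response, which adds chaperones to the endoplasmic reticulum, fell in 18 of 26 genes tested and rose in none, with a median of -0.70. With library totals as the scaling 13 fell and 2 rose, and the median was -0.482. Without control replicate 1 the median was -0.495. HSPA5 (ENSG00000044574, chr9:125234853-125241382, - strand), the chaperone BiP, had 3625, 2507 and 1729 CPM in the controls and 680.1, 675 and 751 CPM under the combination (log2 fold change -1.90, SE 0.23, adjusted p = 0.00014). HERPUD1, a factor of protein degradation from the endoplasmic reticulum, fell from 621, 467 and 329.8 to 103, 109 and 126 CPM (log2 fold change -2.06, SE 0.21, adjusted p = 3e-05), and XBP1, a transcription factor of the response, from 154, 120.5 and 105 to 74.2, 69.3 and 79.7 (log2 fold change -0.77, SE 0.11, adjusted p = 4.4e-05). Here too control replicate 1 was the highest and replicate 3 the lowest, and no control overlapped a combination library.

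Promoters of ASNS and HSPA5 are shown because they carry the elements through which these responses act: in ASNS the C/EBP-ATF composite element, read as TGATGNAA, and in HSPA5 the endoplasmic reticulum stress element. The latter is read as CCAAT, 9 free bases and CCACG. The 200 bases before each start are given 5′ to 3′ on the strand of the gene, from RefSeq on GRCh38.p14, with the match on either strand in capitals: ASNS at chr7:97872409-97872608, - strand, 68 bases before the start, and HSPA5 at chr9:125241344-125241543, - strand, 66 bases before it.
ASNS: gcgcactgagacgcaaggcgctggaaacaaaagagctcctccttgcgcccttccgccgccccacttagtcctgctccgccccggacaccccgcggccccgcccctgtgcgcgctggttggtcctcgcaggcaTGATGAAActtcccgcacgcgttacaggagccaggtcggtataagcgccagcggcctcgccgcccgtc
HSPA5: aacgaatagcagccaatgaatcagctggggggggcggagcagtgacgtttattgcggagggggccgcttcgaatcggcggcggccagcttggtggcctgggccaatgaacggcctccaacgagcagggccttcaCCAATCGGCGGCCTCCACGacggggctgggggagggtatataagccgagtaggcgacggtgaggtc
The composite element stood in 1.83% of all windows, and in 6 of the 16 windows of tRNA synthetase genes (37.5%). Of all 213 genes with it 35.7% rose and 34.3% fell, close to the 33.8% and 36.4% of the genes without it. The stress element stood in 14 windows of all genes (0.12%), 6 of them among the 23 windows of the unfolded protein response list. Of those 14 genes 10 fell and none rose, while 36.4% of the genes without it fell and 33.9% rose. As 6 of the 14 belong to the list described above, this is no separate result. HERPUD1 had no match to the element as read here. For the amino acid response list 29 of 37 genes (78.4%) had a window, too small a part of the list to give a share.

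Enzymes that use or supply amino acids fell as well. Of 20 cytosolic aminoacyl-tRNA synthetases, which charge tRNAs, 17 fell and none rose, with a median of -0.79. AARS1, for alanine, went from 567, 482 and 432 to 175, 196 and 194 CPM (log2 fold change -1.39, SE 0.09, adjusted p = 1.3e-08) and GARS1, for glycine, from 551, 452 and 429.9 to 184, 186 and 195 (log2 fold change -1.34, SE 0.09, adjusted p = 1.6e-08). Of 34 enzymes of serine, folate and methionine metabolism tested 23 fell and 7 rose. PHGDH, the first enzyme of serine synthesis, fell from 433, 383 and 333 to 86.5, 93.0 and 85.4 CPM (log2 fold change -2.12, SE 0.09, adjusted p = 2e-10), and SHMT2, which passes the serine carbon to mitochondrial folate, from 618, 541 and 467 to 147, 134 and 133 (log2 fold change -1.97, SE 0.09, adjusted p = 5.6e-10). MAT2A, the methionine adenosyltransferase that makes SAM in most tissues, fell from 454, 511 and 517 to 276, 278 and 265 CPM (log2 fold change -0.86, SE 0.10, adjusted p = 4.2e-06), and after decitabine alone it had 362, 262 and 293 CPM, a difference from the combination that was not called (log2 difference -0.16, adjusted p = 0.29). CBS, which draws homocysteine into cysteine synthesis, fell from 77.9, 60.7 and 55.9 to 18.3, 16.2 and 19.8 CPM (log2 fold change -1.84, SE 0.12, adjusted p = 2.2e-08), and BHMT2, a homocysteine methyltransferase, rose from 0.0496, 0.05003 and 0.0494 to 3.13, 3.12 and 3.02 (log2 fold change 5.81, SE 0.32, adjusted p = 2.6e-09).

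Central carbon metabolism fell in most of its genes. Glycolysis fell in 15 of 22 tested (also 15 scaled by library totals, with 5 rises) and rose in 3, ALDOC, SLC16A1 and SLC2A1, the last with an adjusted p of 0.066 and 0.068 without control replicate 2 and 3. GPI, the enzyme after hexokinase, went from 508, 553 and 558 to 197, 193 and 161 CPM (log2 fold change -1.56, SE 0.09, adjusted p = 4.9e-09), the phosphofructokinase PFKM from 266, 273 and 276 to 99.3, 98.5 and 90.6 (log2 fold change -1.499, SE 0.08, adjusted p = 1.9e-09) and LDHA, lactate dehydrogenase A, from 1735, 1656 and 1620 to 1085, 997 and 867 (log2 fold change -0.77, SE 0.09, adjusted p = 3.4e-06). HK2, hexokinase 2, had 222, 225 and 234 CPM in the controls and 217, 236 and 224 under the combination (adjusted p = 0.92, but higher at 0.021 with library totals as the scaling). Of 36 enzymes of the pentose phosphate pathway and the TCA cycle 28 fell and 1 rose, or 25 and 4 with library totals as the scaling. SUCLG2, the GTP-forming subunit of succinyl-CoA ligase, fell from 42.5, 36.4 and 37.6 to 12.7, 11.5 and 9.58 CPM (log2 fold change -1.79, SE 0.11, adjusted p = 6.1e-09), and PCK2, the mitochondrial phosphoenolpyruvate carboxykinase, from 74.2, 58.0 and 41.8 to 24.6, 23.5 and 24.1 (log2 fold change -1.27, SE 0.17, adjusted p = 7.7e-05).

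Sterol, hypoxia and redox genes were mixed. In cholesterol synthesis 6 of 25 rose (24.0%) and 10 fell (40.0%), beside 35.9% and 31.3% over all genes tested. LSS, lanosterol synthase, fell from 82.1, 78.0 and 74.5 to 34.0, 41.9 and 41.3 CPM (log2 fold change -1.001, SE 0.09, adjusted p = 2.2e-07). Scaling by library totals alone gave 12 rises and 5 falls and turned the sign of the median. Hypoxia-response genes rose 11 times and fell 5 times among 19: EGLN3, an oxygen-sensing hydroxylase, rose from 1.49, 1.501 and 2.22 to 6.27, 7.66 and 8.95 CPM (log2 fold change 2.13, SE 0.32, adjusted p = 0.0001), and VEGFA fell from 85.8, 79.4 and 64.3 to 31.0, 33.9 and 40.9 (log2 fold change -1.12, SE 0.13, adjusted p = 6.4e-06). Antioxidant targets of NRF2 rose 13 times and fell 6 times among 26 (16 and 3 scaled by library totals), GPX2, a glutathione peroxidase, from 0, 0 and 1 to 238, 210 and 207 counts (adjusted p = 1.3e-10), and SLC7A11, the cystine transporter that ATF4 also induces, fell from 104, 75.2 and 68.3 to 19.1, 25.9 and 31.8 CPM (log2 fold change -1.69, SE 0.24, adjusted p = 0.00029). Of 18 heat and cold shock genes 2 rose, CRYAB and HSPB8, and 9 fell. The rises numbered 5 without control replicate 3 and 5 with library totals as the scaling, which also turned the sign of the list's median, from -0.154 to 0.066. RBM3, a cold-inducible RNA-binding protein, fell from 638, 710.1 and 592 to 215, 238 and 211 CPM (log2 fold change -1.55, SE 0.14, adjusted p = 1.2e-06), and CRYAB, a small heat shock protein, rose from 0.447, 0.951 and 1.33 to 12.2, 14.7 and 16.4 (log2 fold change 3.98, SE 0.33, adjusted p = 1.8e-06).

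Transcripts of the mitochondrial genome fell. Of its 13 protein genes 11 fell and none rose, with a median of -1.02, and their share of all counts was 3.31%, 3.85% and 4.15% in the controls, 2.46%, 2.62% and 1.47% under the combination and 1.21%, 1.06% and 0.807% after decitabine. The groups did not overlap, and the exact permutation test of combination against control gave p = 0.1, the smallest possible. With the ribosomal and transfer RNA genes of that genome included, the shares were 3.78%, 4.40% and 4.73% against 3.43%, 3.79% and 2.43%, which overlap (exact p = 0.2). MT-CO3, a subunit of cytochrome oxidase, had 4854, 5035 and 5102 CPM in the controls and 2166, 1960 and 1062 under the combination (log2 fold change -1.53, SE 0.28, adjusted p = 0.0018), and MT-ATP6, a subunit of ATP synthase, 1241, 1393 and 2031 and 518, 640.3 and 278 (log2 fold change -1.70, SE 0.34, adjusted p = 0.0038). MT-ND1, of complex I, had 1886, 2428 and 2588 and 2318, 2758 and 1467 CPM, which overlap (adjusted p = 0.79). Without control replicate 2 or 3 the falls numbered 7 each, and combination replicate 3 was the lowest of its group for most of these genes. Against decitabine 12 of the 13 were higher, with a median log2 difference of 1.36, a count that became 8, 3 and 6 when decitabine replicates 1 to 3 were left out, 4 and 8 when combination replicates 1 and 2 were, and 13 when combination replicate 3 was.

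Nuclear genes of the same organelle fell too. Of 75 respiratory chain subunits 50 fell and 4 rose, ATP5F1E, NDUFB3, COX6C and ATP5MG, and of 78 mitochondrial ribosomal proteins 60 fell and 7 rose. UQCRC2, a core subunit of complex III, went from 217, 215 and 212 to 72.6, 70.5 and 78.5 CPM (log2 fold change -1.54, SE 0.08, adjusted p = 1.5e-09) and MRPL1 from 24.8, 22.5 and 23.8 to 7.45, 5.19 and 5.33 (log2 fold change -1.99, SE 0.15, adjusted p = 3.7e-08). Of 80 cytosolic ribosomal proteins 64 fell and 1, RPS27L, a p53-induced relative of RPS27, rose, with a median of -0.52. RPL3 fell from 1475, 1546 and 1415 to 654, 600.0 and 529 CPM (log2 fold change -1.31, SE 0.09, adjusted p = 1.8e-08) and RPL22 from 696, 718 and 697 to 342, 325 and 275 (log2 fold change -1.16, SE 0.09, adjusted p = 7.4e-08). The share of all counts held by the cytosolic ribosomal proteins went from 5.98%, 6.04% and 5.41% in the controls to 4.99%, 4.61% and 4.05%, again with an exact p = 0.1. Scaling by library totals left 33 of the respiratory chain subunits lower and raised the rises to 16. It gave 46 falls and 12 rises of mitochondrial ribosomal proteins, and 49 falls and 3 rises of cytosolic ones. The rises of respiratory chain subunits numbered 8 without combination replicate 3 and 2 without combination replicate 1 or control replicate 3. Those of the mitochondrial ribosomal proteins numbered 4 without combination replicate 1 or 2 or control replicate 2 or 3.

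**Figure D5:**
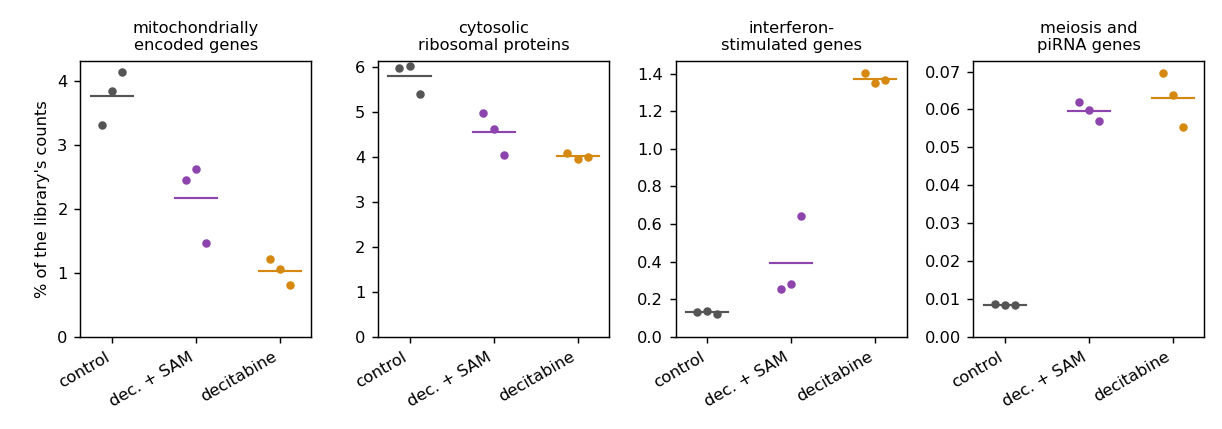
Share of each library's counts, in percent from 0, held by the mitochondrially encoded genes, the cytosolic ribosomal proteins, the interferon-stimulated genes and the meiosis and piRNA genes in the controls, the combination and decitabine alone, with 1 point per library and a line at the mean. Combination replicate 3 is the lowest of its group for mitochondrially encoded genes at 1.47% and the highest for interferon-stimulated genes at 0.643%.

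The genes of DNA replication fell. Of 42 genes of replication and S phase 32 fell and 4, TK1, CCNE1, E2F1 and E2F2, rose (27 and 7 scaled by library totals), with a median of -0.59. PCNA (ENSG00000132646, chr20:5114953-5126626, - strand), the sliding clamp of DNA polymerases, had 152, 156 and 181 CPM in the controls and 116, 103 and 82.2 CPM under the combination (log2 fold change -0.70, SE 0.12, adjusted p = 0.00032), without overlap. PRIM1, a primase subunit, fell from 49.5, 46.3 and 50.8 to 14.9, 15.3 and 11.9 CPM (log2 fold change -1.80, SE 0.11, adjusted p = 5.1e-09) and LIG1, the ligase of lagging strands, from 56.1, 59.98 and 58.5 to 28.4, 24.9 and 22.3 (log2 fold change -1.21, SE 0.11, adjusted p = 2.7e-07). The rises were small: CCNE1, the cyclin of S phase entry, went from 5.51, 7.95 and 7.997 to 12.1, 12.4 and 10.3 CPM (log2 fold change 0.70, SE 0.15, adjusted p = 0.0007).

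The promoter of PCNA is shown because it holds an E2F site, the element through which E2F factors switch on S phase genes, read as TTTCCCGC, TTTCGCGC, TTTGCCGC or TTTGGCGC on either strand. It gives the 200 bases before the start at chr20:5126623-5126822, - strand, from RefSeq on GRCh38.p14, 5′ to 3′ on the strand of the gene, with the match 59 bases before the start in capitals.
PCNA: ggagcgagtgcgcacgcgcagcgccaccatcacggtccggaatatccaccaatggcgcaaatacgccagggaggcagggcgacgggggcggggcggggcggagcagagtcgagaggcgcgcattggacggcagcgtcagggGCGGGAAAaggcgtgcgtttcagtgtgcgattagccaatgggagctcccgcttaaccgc
Such a site stood in 20 of 36 windows of the replication list (55.6%) and in 5.19% of all windows. Of the 603 genes with one 27.7% rose and 44.8% fell, against 34.2% and 35.9% of the 11025 genes without one.

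Mitotic genes fell in 29 of 42 and rose in 1, CENPA, the histone variant of centromeres, from 21.2, 19.01 and 22.02 to 29.4, 29.3 and 28.6 CPM (log2 fold change 0.49, SE 0.09, adjusted p = 0.00015). PLK1, a kinase of mitotic entry, had 97.0, 104 and 105 CPM in the controls and 56.9, 58.9 and 42.5 under the combination (log2 fold change -0.95, SE 0.10, adjusted p = 2.3e-06), and KIF11, the kinesin that separates spindle poles, 75.5, 70.4 and 85.7 and 40.5, 42.9 and 41.3 (log2 fold change -0.89, SE 0.10, adjusted p = 1.4e-06). MKI67, the proliferation marker Ki-67, had 187, 239 and 278 CPM in the controls and 143, 217 and 156 under the combination, which overlap. It was not called (adjusted p = 0.076), though it was by DESeq2 (0.013), by voom and limma (0.03), without control replicate 1 (0.022) and without combination replicate 2 (0.0061). Scaling by library totals alone left 17 mitotic genes lower. Against decitabine 21 of the 42 were higher and none lower, and the count was 13 without combination replicate 2.

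Inhibitors of the cell cycle were called 7 times up (31.8%) and 6 times down (27.3%) among 22, near the 35.9% and 31.3% over all genes tested, and 12 times up and 5 times down with library totals as the scaling. CDKN1A, the p21 inhibitor, had 10.03, 10.5 and 10.6 CPM in the controls and 41.1, 48.6 and 66.2 CPM under the combination (log2 fold change 2.32, SE 0.27, adjusted p = 0.00013), although PC-3 is known as a p53-null line. CDKN2D, the p19 inhibitor of CDK4 and CDK6, rose from 12.9, 11.7 and 12.4 to 56.4, 55.3 and 43.9 CPM (log2 fold change 2.07, SE 0.10, adjusted p = 9.4e-10), and RPRM, a mediator of G2 arrest, from 1.49, 2.10 and 1.63 to 7.32, 7.92 and 6.60 (log2 fold change 2.06, SE 0.28, adjusted p = 2.4e-05). CDKN2C, the p18 inhibitor, fell from 61.2, 58.8 and 60.5 to 25.7, 27.4 and 22.8 CPM (log2 fold change -1.25, SE 0.08, adjusted p = 1.3e-08), and SESN2, a sestrin that ATF4 also induces, from 83.0, 65.0 and 53.8 to 12.8, 16.2 and 18.3 (log2 fold change -2.09, SE 0.16, adjusted p = 4.8e-07). Genes listed as p53-type targets rose 11 times and fell 9 times among 25 with a median of 0.00, near that of all genes, and PHLDA3, an inhibitor of AKT, rose from 4.87, 6.60 and 6.76 to 33.5, 37.5 and 36.4 CPM (log2 fold change 2.56, SE 0.15, adjusted p = 8.6e-09).

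BCL2 family genes, which promote or block apoptosis, were called up in 29.4% and down in 29.4%, near the 35.9% and 31.3% over all genes tested. Of the 17 tested, 5 rose, BCL2L10, BMF, BIK, BAD and BCL2L1, and 5 fell, BCL2, BBC3, MCL1, BOK and BCL2L2. BMF, which promotes apoptosis, rose from 2.08, 2.40 and 2.62 to 12.5, 11.9 and 19 CPM (log2 fold change 2.61, SE 0.21, adjusted p = 1.2e-07), while BCL2 itself fell from 8.99, 8.40 and 10.1 to 3.31, 4.18 and 3.96 (log2 fold change -1.26, SE 0.15, adjusted p = 4.1e-06). Scaling by library totals gave 8 rises and 3 falls. Of 28 death receptor and inflammatory cell death genes 12 rose and 7 fell. The share that rose was 42.9%, beside 35.9% over all genes tested, and the share that fell was below the 31.3% over all genes. The median log2 fold change of this list was 0.305, but -0.017 with only the 6 libraries compared and 0.016 without combination replicate 3. The list as a whole therefore had no clear direction. TNFRSF10D, a decoy receptor for TRAIL, came on from no counts at 211, 200 and 167 counts (at least 168-fold), and BIRC3, an inhibitor of apoptosis, rose from 4.82, 2.95 and 4.05 to 17.6, 24.5 and 49.6 CPM (log2 fold change 2.96, SE 0.51, adjusted p = 0.0018). GSDMD, the pore protein of pyroptosis, fell from 95.8, 91.5 and 82.9 to 45.5, 40.4 and 52.0 CPM (log2 fold change -0.97, SE 0.09, adjusted p = 4.2e-07). DNA repair genes fell 25 times among 39 and 3 rose, BRCA2, RAD50 and RAD51C, or 20 and 6 with library totals as the scaling. FANCD2, of the Fanconi pathway for crosslinks, fell from 63.9, 62.0 and 64.5 to 32.3, 32.3 and 26.1 CPM (log2 fold change -1.07, SE 0.14, adjusted p = 2.4e-05), and BRCA2, a factor of homologous recombination, rose from 15.7, 16.3 and 17.4 to 21.9, 28.4 and 28.4 (log2 fold change 0.67, SE 0.11, adjusted p = 7.1e-05).

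The machinery of DNA methylation was lower in most of its genes. Of 18 genes of DNA methylation tested 11 fell and 3 rose, DNMT3B, MBD1 and ZBTB38. DNMT1, the maintenance methyltransferase, had 371, 405 and 436 CPM in the controls and 242, 250.2 and 220.3 CPM under the combination (log2 fold change -0.77, SE 0.10, adjusted p = 7.2e-06). TET1, which oxidizes 5-methylcytosine, fell from 11.3, 10.6 and 9.92 to 2.09, 2.86 and 1.79 CPM (log2 fold change -2.24, SE 0.22, adjusted p = 6e-07). DNMT3B, a methyltransferase of unmethylated DNA, rose from 6.41, 9.76 and 8.10 to 15.5, 13.4 and 12.6 CPM (log2 fold change 0.77, SE 0.14, adjusted p = 0.00026). With libraries scaled by their totals alone 4 fell and 5 rose. Chromatin repressors fell 21 times among 38 and rose 4 times, SETDB2, PHF1, MGA and RNF2, and without control replicate 1 or 2 or combination replicate 3 only 2 rose. Scaling by library totals gave 10 rises and 16 falls of these repressors. L3MBTL2, of a Polycomb complex, fell from 55.3, 57.7 and 60.5 to 20.7, 20.02 and 23.4 CPM (log2 fold change -1.44, SE 0.08, adjusted p = 3.2e-09).

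Genes known as methylated at their promoters in prostate cancer rose 20 times and fell 4 times among 29 tested, and the ones that fell were GSTP1, MGMT, CDH13 and AOX1. GSTP1, a glutathione transferase silenced in most prostate tumours, was already transcribed in these controls at 189.7, 206 and 182 CPM and had 149.8, 140.2 and 108 CPM under the combination (log2 fold change -0.54, SE 0.10, adjusted p = 0.00029). MGMT, which removes alkyl groups from guanine, fell from 33.8, 31.1 and 25.9 to 7.62, 6.20 and 6.26 CPM (log2 fold change -2.17, SE 0.13, adjusted p = 4.1e-09). GPX3, a secreted glutathione peroxidase, and EDNRB, an endothelin receptor, came on from no counts at 142, 166 and 187 and 66, 70 and 43 counts (at least 144-fold and at least 52.2-fold). RARB, a retinoic acid receptor often named with them, had at most 2 counts in any of the 6 libraries and was not tested.

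Ligands and antagonists of WNT signalling rose 16 times and fell 2 times among 22 tested. DKK3, a dickkopf-family protein, rose from 0.0993, 0.2 and 0.296 to 8.53, 8.89 and 9.54 CPM (log2 fold change 5.46, SE 0.25, adjusted p = 3.3e-10) and the ligand WNT11 from 0.0496, 0.3 and 0.148 to 10.97, 9.59 and 8.43 (log2 fold change 5.82, SE 0.29, adjusted p = 7.3e-10). The 2 that fell were LEF1, a nuclear effector, from 2.53, 3.05 and 3.75 to 1.92, 2.11 and 1.92 CPM (adjusted p = 0.01, and 0.055 without control replicate 3) and WNT5A (adjusted p = 0.013), and neither was called with library totals as the scaling. Growth factor receptor kinases rose 20 times and fell 7 times among 38, FGFR3 from 0.0993, 0.15 and 0.148 to 3.53, 4.14 and 3.75 CPM (log2 fold change 4.79, SE 0.36, adjusted p = 4.3e-08). INSR, the insulin receptor, fell from 34.7, 36.8 and 39.8 to 20.9, 20.7 and 21.9 CPM (log2 fold change -0.81, SE 0.08, adjusted p = 1.1e-06). Of 15 neuroendocrine markers tested 9 rose and 2 fell, POU3F2 and SYT1, and SYP, the synaptophysin of secretory vesicles, rose from 2.08, 2.30 and 2.27 to 15.1, 17.1 and 16.5 CPM (log2 fold change 2.87, SE 0.12, adjusted p = 2e-10). Of 16 androgen-response and prostate genes 6 rose and 6 fell (37.5% each, near the 35.9% and 31.3% over all genes tested), and library totals as the scaling gave 9 and 4. NDRG1, a differentiation and stress gene, fell from 286, 224 and 223 to 73.9, 79.8 and 84.9 CPM (log2 fold change -1.62, SE 0.11, adjusted p = 3.9e-08).

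Transporters and channels moved in both directions. Solute carriers rose 111 times (45.7%) and fell 67 times (27.6%) among 243 tested, beside 35.9% and 31.3% over all genes tested. SLC1A7, a glutamate transporter, came on from no counts at 212, 202 and 156 counts (at least 166-fold), and SLC16A5, a monocarboxylate transporter, rose from 1, 0 and 2 to 243, 185 and 190 counts (adjusted p = 3.5e-10). SLC19A1, the reduced folate carrier, fell from 57.4, 58.4 and 58.7 to 19.3, 19.3 and 15.3 CPM (log2 fold change -1.70, SE 0.10, adjusted p = 2.9e-09), and SLC25A10, the mitochondrial dicarboxylate carrier, from 67.1, 64.2 and 59.1 to 20.6, 18.4 and 18.7 (log2 fold change -1.72, SE 0.09, adjusted p = 7.7e-10). Potassium channel genes rose 32 times and fell 8 times among 50, KCNS1 from 0, 0 and 0.0494 to 5.44, 5.50 and 6.05 CPM (log2 fold change 7.999, SE 0.39, adjusted p = 6.9e-10) and the beta subunit KCNAB2 from 38.5, 37.5 and 35.9 to 13.9, 13.2 and 14.9 (log2 fold change -1.41, SE 0.09, adjusted p = 5.4e-09). Clustered protocadherins, which give neurons their identity, rose 17 times and fell 8 times among 35, PCDHB3 from 0.248, 0.2 and 0.0987 to 2.18, 2.42 and 2.47 CPM (log2 fold change 3.65, SE 0.34, adjusted p = 4.1e-07). Olfactory receptors stayed mostly silent: of 400 listed, 247 had no count in any library and 15 were tested. Of these 15, 6 rose (40.0%) and 2 fell (13.3%), OR5AN1 and OR2L2.

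The 8 largest falls among protein-coding genes that averaged 50 counts or more in either group, without overlap, were of genes transcribed in every control, and none of the 8 was lost. MSMP, a secreted microseminoprotein, had 1047, 704 and 479 CPM in the controls and 54.7, 34.8 and 15.8 CPM under the combination (log2 fold change -4.41, SE 0.79, adjusted p = 0.0026). MUC5B, a gel-forming mucin, had 1088, 1529 and 1390 and 102, 124 and 93.8 CPM (log2 fold change -3.65, SE 0.34, adjusted p = 5.4e-05). In both genes the lowest control lay several times above the highest combination library. TSPEAR, a secreted protein of hair follicle and ear, fell from 18.8, 19.2 and 15.9 to 1.74, 1.41 and 1.32 CPM (log2 fold change -3.59, SE 0.19, adjusted p = 1.4e-09), LMF1, a maturation factor of lipases, from 13.3, 14.0 and 13.3 to 1.13, 1.28 and 1.45 (log2 fold change -3.39, SE 0.17, adjusted p = 9.2e-10), and MAP2K6, a kinase that activates p38, from 25.02, 26.9 and 25.3 to 3.35, 2.95 and 2.43 (log2 fold change -3.14, SE 0.27, adjusted p = 2e-06). FCGR2A, an Fc receptor better known from myeloid cells, fell from 14.8, 10.96 and 10.6 to 1.35, 0.924 and 1.70 CPM (log2 fold change -3.18, SE 0.21, adjusted p = 1.2e-08), ANKRD36C from 88.4, 77.8 and 75.3 to 7.62, 7.96 and 6.22 (log2 fold change -3.47, SE 0.40, adjusted p = 0.00019) and CLYBL, a mitochondrial enzyme, from 3.58, 3.40 and 3.16 to 0.435, 0.352 and 0.426 (log2 fold change -3.04, SE 0.28, adjusted p = 3.9e-07). ANKRD36C has nearly identical copies, so its value is uncertain.

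Set against decitabine alone, the comparison that holds the added SAM, far fewer genes differed: 1421 (7.67%) were higher and 1487 (8.02%) lower under the combination, with a median log2 difference of 0.00. The 2 comparisons share the combination libraries, so their values are given side by side. Of the genes that rose against the controls 591 were higher and 464 lower than after decitabine, and of those that fell 383 were higher and 686 lower. A further 784 differed from decitabine without being called against the controls. Of the 54 cancer-testis genes tested 4 were higher and 4 lower, near the 7.67% and 8.02% over all genes tested. DAZL had 249, 226 and 152 CPM after decitabine and 206, 182 and 155 under the combination (adjusted p = 0.55, and 0.038 without decitabine replicate 3). The ITGA3 subunit had 423, 474 and 448 CPM in the controls, 488, 531 and 494 after decitabine and 229, 247 and 326 under the combination, lower than either (against decitabine log2 difference -0.92, adjusted p = 0.00043). COL6A1 was also lowest under the combination (against decitabine log2 difference -0.75, adjusted p = 0.00043), but its 581, 619 and 486 CPM after decitabine overlapped the controls. TRIM14, an adaptor of antiviral signalling, had 111, 108 and 106 CPM in the controls, 135, 122 and 112 after decitabine and 50.4, 50.3 and 71.0 under the combination (against decitabine log2 difference -1.10, adjusted p = 0.00041). CLDN5 was higher than after decitabine, where it had 0.381, 0.717 and 0.974 CPM (log2 difference 1.74, adjusted p = 0.0044), and TNFRSF10D with 3.85, 2.78 and 4.40 CPM likewise (log2 difference 1.18, adjusted p = 0.0029). These totals depended on single libraries: they became 846 and 937 when decitabine replicate 1 was left out, 408 and 596 for decitabine replicate 2, 591 and 773 for combination replicate 1, and 381 and 480 for combination replicate 2.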

How the data were processed

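Total RNA of PC-3 cells was sequenced in 9 libraries, 3 each of control, decitabine and combination cells. Per the study's methods and the submitters' processing notes, the authors trimmed reads with Trim Galore 0.6.4 and quantified them against GRCh38 with kallisto, and they deposited estimated counts per gene, which were rounded here to whole numbers. The deposited log2 CPM tables were not used, and 0 per-sample columns were left unmapped. Whether strand was used in counting is not given in the sources used here, so overlapping and antisense genes are uncertain.

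Of 60617 gene identifiers, 60357 matched GENCODE 44 (GRCh38.p14), which gave names and coordinates. Genes with low counts were removed (filterByExpr), libraries were scaled by the trimmed mean of M values (TMM), and all 9 libraries were fitted with edgeR 4.0.16 in R 4.3.3 by the robust quasi-likelihood method, with 1 mean per group, calling genes at a Benjamini-Hochberg adjusted p under 0.05. The fit was tested on simulated data in which a small part of the genes changed, by the same sizes up and down. It therefore did not test the scaling or the calls under a change as broad and uneven as the one here. Levels are TMM-scaled CPM, and where no control had a count the fold is a lower bound against 3 counts over the control group. Genes silent in the controls could pass the filter only through treated libraries, so counts over tested members do not cover all members. No replicates agreed within sampling noise (chi-square per degree of freedom 5.86 to 23.5). Alternatives were other scalings and filters, DESeq2 1.42.0, voom with limma 3.58.1 as in the study, the 6 libraries alone, a replicate block, fold thresholds and each library left out.

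Named genes were preset anchors and label markers; up to 3 called genes with the largest rise and 3 with the largest fall in each list, with no overlap between groups and a mean of at least 50 counts in the control or combination group; by the same limits the 8 largest rises and falls of protein-coding genes; and the 5 largest rises and falls against decitabine that were also called against the controls. Others were chosen after their values were seen, and some genes that the rule names are not reported here. The members and lists were chosen with earlier results of these data known. Promoter windows are from RefSeq (GRCh38.p14) and were searched on both strands.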

Additional observations from a re-analysis of the deposited data

How the results depend on the processing

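Against the controls the direction of the totals held under every alternative. The counts of higher and lower genes were 6734 and 5698 with DESeq2's size factors, 6499 and 5566 with DESeq2 and 6604 and 5820 with voom and limma. Library totals as the only scaling gave 8695 higher and 3857 lower. Requiring a log2 fold change above 1 left 3962 and 1216, and above 1.5 left 3058 and 372. With each library left out in turn the counts ranged from 6293 to 6809 higher and from 5409 to 5942 lower. Against decitabine a difference above 1 left 74 higher and 323 lower genes and above 1.5 left 17 and 135, and with each library left out the counts ranged from 381 to 2066 and from 480 to 1997. They fell by over 1.5 times without decitabine replicate 1 (846 and 937), decitabine replicate 2 (408 and 596), combination replicate 1 (591 and 773) and combination replicate 2 (381 and 480). The 308 genes that came on numbered 81 at 50 counts and 548 with 1 count allowed in each control. HK2 was higher under library totals, at log2 0.21, with a fitted value of -0.01 otherwise. The cause was not tested.

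The labels number replicates in each group but do not tie the numbers across groups, and the deviations of same-numbered control and combination libraries correlated at 0.069, -0.004 and 0.058. With the replicate number as a block 6735 genes were higher and 5938 lower than in the controls, and 1766 higher and 1890 lower than after decitabine. Between decitabine and combination the correlations were 0.233, 0.036 and 0.229.

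With 3 libraries a group, small differences at low counts were not detectable. Bulk RNA does not show which cells changed, and SAM alone was not analysed here.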
